A study of Mus musculus with 20 samples.

Results

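Interferon-stimulated genes are the genes that cells turn on when they sense interferon. A list of 37 such genes and their regulators was followed by name among the 49671 genes counted in 20 mouse hippocampi. The rule that picks them uses names and no measured value, but the list was drawn up with earlier results of these data known. It held 20 interferon-induced effector proteins, 6 GTPases of the interferon gamma response, 5 transcription factors, 2 RNA sensors and 4 interferon receptor chains. Each of the 37 had at least 10 counts in 5 or more libraries. Of these, 36 were among the 18427 genes tested. Mx1, an antiviral GTPase of the dynamin superfamily, was left out by the filter on low counts, with 125 counts over all libraries and 2 to 12 in each.

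Type I interferons bind the receptor chains Ifnar1 and Ifnar2, whose kinases Jak1 and Tyk2 phosphorylate Stat2. Stat2 then acts with Irf9 in a complex that binds the interferon-stimulated response element in the promoters of effector genes such as Isg15, Ifit1 and Bst2. Interferon gamma, made mainly by T cells and natural killer cells, binds Ifngr1 and Ifngr2 and acts at the gamma-activated site, which leads to the guanylate-binding proteins and the immunity-related GTPases. In the brain the pathway is known to act in microglia, endothelium, astrocytes and neurons, and a low level of it is present in healthy tissue.

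The study concerns what immune checkpoint inhibition does to inflammation and degeneration in the brain. RNA was measured in bulk in 1 frozen hippocampus from each of 20 wild-type male mice, 10 to 12 weeks old, with 5 separate mice in each of 4 groups. The control group was free of tumour and received isotype antibody. The group called ICI was free of tumour and received both checkpoint antibodies. Anti-CTLA-4 was given at 1 mg per dose with 3 doses per week, and anti-PD-1 at 200 µg per dose with 2 doses per week. The melanoma group received isotype antibody and carried tumours of the syngeneic line D4M-3A.UV2. These tumours came from 500000 cells injected into the skin on each side and had 1 week to engraft. The melanoma plus ICI group carried the same tumours and received both checkpoint antibodies, for which the labels state 3 weeks. Every brain was taken 72 hours after the last injection. Mouse strain was not given in the sources used here, and D4M-3A.UV2 is a single cell line grown in the skin, so the comparisons concern the brain of mice with a tumour elsewhere.

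The promoters of 6 members are shown to make the response element visible in genes the results turn on. Isg15 and Ifit1 are effectors with well-known elements, Bst2, Irgm1 and Ifitm2 had the smallest p-values in ICI against control, and Ifngr1 had the smallest in melanoma plus ICI against ICI. Each line gives the 250 bases before the start in RefSeq (build GRCm38.p6), 5′ to 3′ on the gene's strand. Capitals mark the core of the element, searched as GAAA, any 2 bases and GAAA again on both strands, with overlapping matches counted. The Isg15 window lies on the minus strand at chr4:156200819-156201068. The Ifit1 window is on the plus strand at chr19:34640639-34640888. The Bst2 window is on the minus strand at chr8:71537473-71537722. The Irgm1 window is on the minus strand at chr11:48871421-48871670. The Ifitm2 window is on the minus strand at chr7:140955962-140956211. The Ifngr1 window is on the plus strand at chr10:19591699-19591948 and is shown as a receptor gene with no match.
Isg15: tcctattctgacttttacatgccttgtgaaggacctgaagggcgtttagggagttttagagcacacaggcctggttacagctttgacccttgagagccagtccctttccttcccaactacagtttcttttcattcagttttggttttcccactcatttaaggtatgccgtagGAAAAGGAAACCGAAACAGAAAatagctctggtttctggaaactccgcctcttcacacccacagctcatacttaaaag
Ifit1: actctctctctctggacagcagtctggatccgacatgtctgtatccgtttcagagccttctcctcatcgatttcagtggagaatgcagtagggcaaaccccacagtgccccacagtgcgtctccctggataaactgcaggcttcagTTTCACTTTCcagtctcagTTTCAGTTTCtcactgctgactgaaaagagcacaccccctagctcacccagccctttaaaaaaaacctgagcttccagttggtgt
Bst2: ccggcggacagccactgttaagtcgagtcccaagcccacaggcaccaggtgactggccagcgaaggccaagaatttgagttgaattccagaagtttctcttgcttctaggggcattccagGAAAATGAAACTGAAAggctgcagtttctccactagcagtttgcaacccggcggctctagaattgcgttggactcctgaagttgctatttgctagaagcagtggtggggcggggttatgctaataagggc
Irgm1: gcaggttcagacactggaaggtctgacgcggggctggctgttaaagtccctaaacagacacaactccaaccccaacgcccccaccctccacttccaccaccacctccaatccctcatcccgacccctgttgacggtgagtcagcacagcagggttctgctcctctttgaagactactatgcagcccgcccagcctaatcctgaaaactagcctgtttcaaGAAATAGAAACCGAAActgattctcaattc
Ifitm2: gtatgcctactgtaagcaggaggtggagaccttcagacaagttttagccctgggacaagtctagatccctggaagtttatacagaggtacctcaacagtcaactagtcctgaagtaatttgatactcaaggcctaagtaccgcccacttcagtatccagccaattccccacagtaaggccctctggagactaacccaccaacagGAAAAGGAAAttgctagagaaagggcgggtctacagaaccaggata
Ifngr1: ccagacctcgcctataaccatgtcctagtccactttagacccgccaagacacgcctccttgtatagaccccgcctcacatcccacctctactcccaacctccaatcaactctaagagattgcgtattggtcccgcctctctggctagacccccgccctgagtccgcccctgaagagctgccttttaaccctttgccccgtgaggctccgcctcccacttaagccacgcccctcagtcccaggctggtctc

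Isg15 had 3 overlapping matches, from 78 to 57 bases before the start. Those of Bst2 overlapped from 130 to 115 bases before the start and those of Irgm1 from 30 to 15. In Ifit1, 2 separate matches ended 95 and 76 bases before the start, both on the opposite strand. Of the 37 members, 30 had a RefSeq promoter window, and 13 of these (43.3%) held the core, against 936 of 27025 genes (3.46%) with a window of that length. The core was present in 7 of 14 effectors, 5 of 5 GTPases, 1 of 5 transcription factors (Stat2), 0 of 2 RNA sensors and 0 of 4 receptor chains. The gamma-activated site, searched as TTC, any 3 bases and GAA, a pattern that is the same on both strands, was in 10 of 30 members (33.3%) and in 8.13% of all genes. In Bst2 it lay next to the response element and overlapped it, from 136 to 128 bases before the start. A match shows only that these letters are in the window, and a window without one says nothing about the factor.

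**Figure D1:**
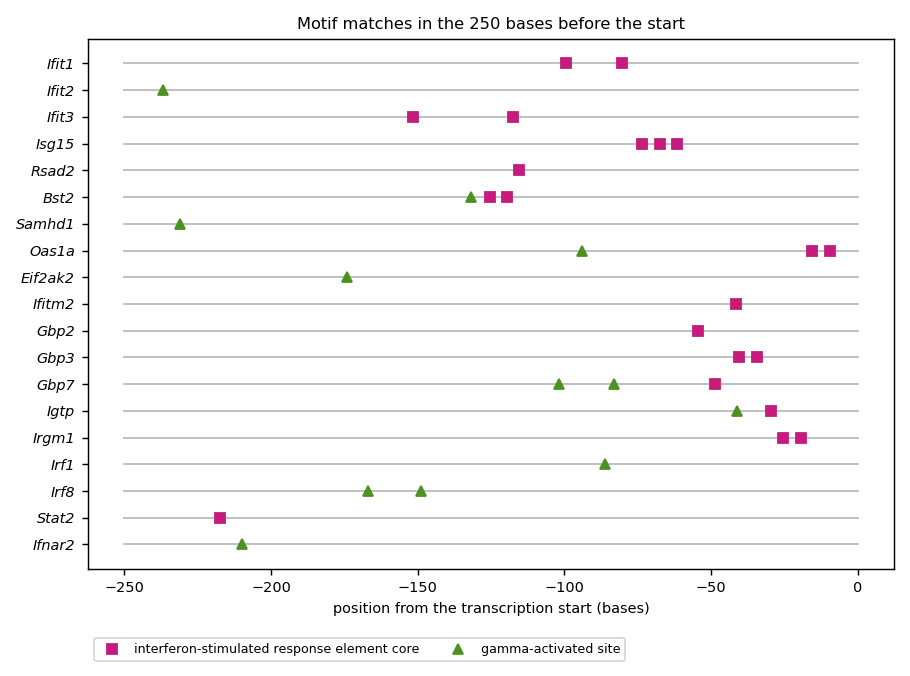
Matches to the response element core (squares) and the gamma-activated site (triangles) in the members with at least 1 match. The x axis gives the distance from the transcription start in bases, over the 250 bases before it. The 5 GTPase genes with a window (Gbp2, Gbp3, Gbp7, Igtp and Irgm1) each have a response element core, and of the 4 receptor chains only Ifnar2 appears, with a gamma-activated site.

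The libraries held 21990624 to 25735149 counts each. Control replicate 4 and melanoma plus ICI replicate 1 stood apart on the first principal component (23.4% of the variance), and alternative fits left them out. The numbers in the library names form a separate run in each group and meet only at 64, which ICI replicate 5 and melanoma plus ICI replicate 1 share. Their meaning is not given, and a batch that followed them cannot be told apart from the groups. All 10 markers of hippocampal excitatory neurons were expressed, with a summed level that varied from 580 to 1905 CPM over libraries. CPM here means counts per 1000000 of the scaled library size. The 12 endothelial markers summed to 255 to 421 CPM, the 13 microglial markers to 327 to 440.1 CPM and the 9 choroid plexus markers to 23.9 to 6692 CPM, so the choroid plexus signal varied most between libraries. In bulk tissue, fewer cells of a type and less RNA per cell cannot be told apart.

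The interferon genes were expressed at low to moderate levels in every group. Per kb of gene length, the highest member was Ifi27, an interferon-induced protein of intracellular membranes, at a mean level of 25.2 CPM per kb over the 20 libraries, above 88.8% of the genes tested. The receptor chain Ifngr2 followed at 14.6 CPM per kb. Ifitm3, which blocks virus fusion with endosomes, stood at 10.1, Ifnar1 at 8.21 and Stat2 at 8.04 CPM per kb. The ranges of Ifnar1 and Stat2 over libraries, 6.69 to 9.16 and 4.90 to 9.37 CPM per kb, overlapped almost entirely, so their order was not resolved. All 4 receptor chains were among the 9 highest members, with Ifnar2 at 5.13 and Ifngr1 at 4.45 CPM per kb.

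The effectors best known as readouts of the type I response were low. Isg15, a ubiquitin-like protein that is joined to other proteins during infection, had a mean level of 1.97 CPM per kb. Ifit1, which binds foreign RNA ends, had 0.692 CPM per kb. Usp18, which removes Isg15 from proteins and damps the receptor, had 0.402 CPM per kb. At the lower end stood Oas1a (0.271 CPM per kb), which makes the oligoadenylates that activate RNase L, Rsad2 (0.266), which makes a chain-terminating nucleotide, and Mx1 (0.0725). The range of Oas1a, 0.0677 to 0.660 CPM per kb, spanned that of Rsad2. The RNA sensors Ddx58 (RIG-I) and Ifih1 (MDA5) had 0.782 and 0.540 CPM per kb. Among the transcription factors, Irf9 stood at 3.17, Irf1 at 2.51, Irf8 at 0.895 and Irf7, the factor that amplifies type I interferon production, at 0.514 CPM per kb.

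**Figure D2:**
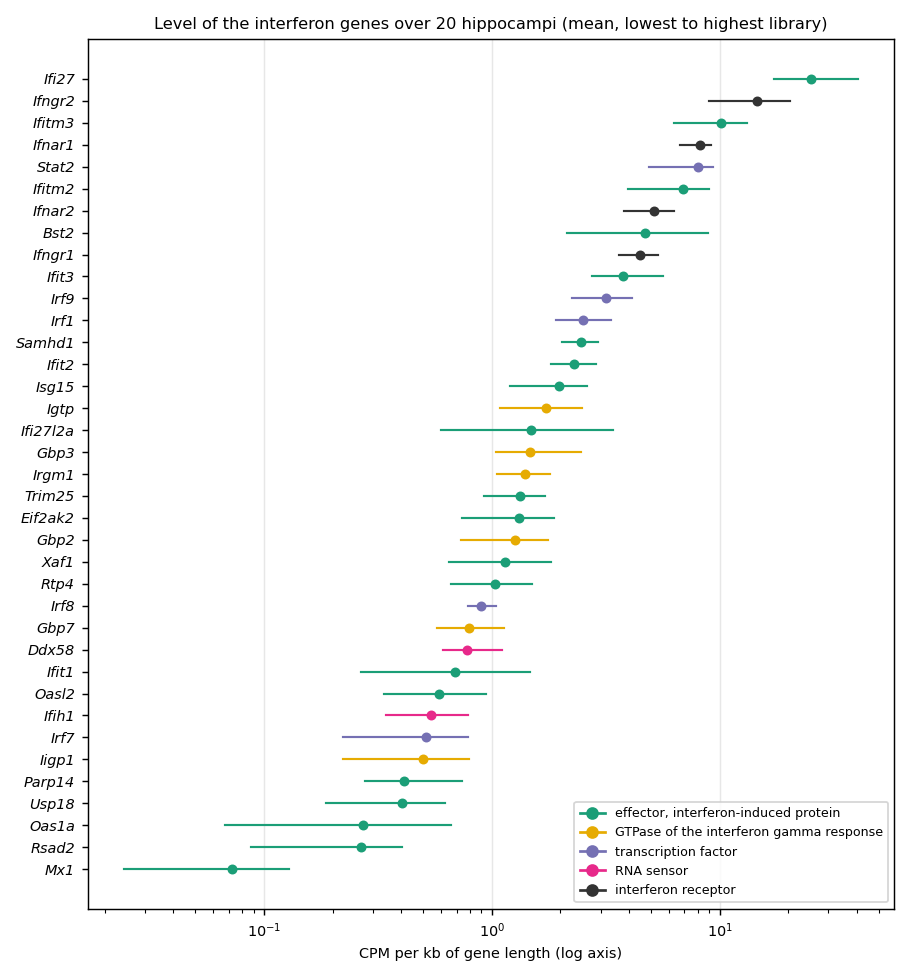
Mean level of the 37 members in CPM per kb of gene length on a log axis, with lines from the lowest to the highest of the 20 libraries and colours for the members' roles. Ifi27 is highest at 25.2 CPM per kb, and Oas1a, Rsad2 and Mx1 are lowest.

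The ligands themselves were at the floor. Of 13 interferon genes followed, 7 had 0 counts in every library, Ifnb1 and Ifna4 among them. For such a gene, 0 of 470498722 counts allows up to 0.00638 CPM, a limit that covers counting error only. The 13 ligand genes had 14 counts together. Ifng had 6, in 3 of 20 libraries, split as 2 in the ICI group, 1 in melanoma, 3 in melanoma plus ICI and 0 in control. No ligand could be tested.

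For every tested member but Ifngr1, most of the variation lay between mice of one group. The share of the variance in log2 CPM that lay between groups had a median of 18.7% over the 36 tested members and 14.52% over all genes tested. It ran from 1.12% for Trim25, the ubiquitin ligase that acts with RIG-I, to 52.03% for Ifngr1. The SD within groups had a median of 0.29 on the log2 scale over members and 0.26 over all genes. It was smallest for Irf8, a factor that microglia depend on, at 0.10, and largest for the effector Ifi27l2a at 0.67.

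In ICI against control, which asks what the antibodies did without a tumour, 26 of 36 members had a lower level and 10 a higher one. The share that was higher was 27.8% of members, beside 48.03% of all genes. No member passed the test. By edgeR's quasi-likelihood test with Benjamini-Hochberg adjustment, 0 of 36 members and 0.0% of all genes were past an adjusted p of 0.05. At an unadjusted p under 0.05 there were 4 members, all lower in ICI (11.1%), beside 3.15% of all genes lower and 5.23% in either direction. DESeq2 also called 0 members and called 1 gene in all, with 4 members at an unadjusted p under 0.05, beside 5.69% of all genes. The median log2 fold change was -0.09 over members and -0.01 over all genes.

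Bst2 (tetherin), which holds budding virions at the cell surface, had the largest difference. Its level, in the order of the replicates, was 2.47, 7.996, 6.15, 4.43 and 6.48 CPM in control and 1.93, 2.25, 3.53, 3.05 and 5.38 CPM in ICI. Control replicate 1 lay among the ICI values and ICI replicate 5 among the control values, so the groups overlapped. The log2 fold change was -0.77 ± 0.29 (SE, n = 5 per group; edgeR, adjusted p = 0.767). Irgm1, a GTPase of membrane trafficking and defence inside cells, was at 9.84, 7.83, 8.202, 9.83 and 10.3 CPM in control and at 7.21, 6.53, 6.10, 6.67 and 8.89 CPM in ICI. Here 4 of 5 ICI libraries lay below the lowest control library, and ICI replicate 5 lay above 2 of the control libraries. The log2 fold change of Irgm1 was -0.38 ± 0.14 (SE; edgeR, adjusted p = 0.767).

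Ifitm2, a relative of Ifitm3, differed by a log2 fold change of -0.41 ± 0.17 and Rsad2 by -0.61 ± 0.29 (SE). Each had an adjusted p of 0.767 by edgeR, and reads shared between Ifitm2 and Ifitm3, which are near copies, may have been split by the counting. Other effectors of the type I response had an unadjusted p of 0.05 or more, with log2 fold changes of -0.31 ± 0.18 for Isg15, -0.52 ± 0.27 for Usp18 and -0.05 ± 0.31 for Ifit1. In 0 of 36 members did the groups not overlap, beside 0.418% of all genes that were higher and 0.467% that were lower without overlap.

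One library carried much of the spread in ICI. Without ICI replicate 5, the members at an unadjusted p under 0.05 numbered 11 of 37, all lower in ICI (29.7%), beside 1118 of 18624 genes in all, and the median log2 fold change of the members was -0.18. The adjusted count stayed at 0, with a smallest adjusted p of 0.727 by edgeR. The count at an unadjusted p under 0.05 was 2 of 37 (5.4%) without control replicate 2, beside 9.47% of all genes, and also 2 without ICI replicate 1, beside 3.32%. Without control replicate 4 and melanoma plus ICI replicate 1, the libraries that stood apart, it was 5 of 37, beside 4.87% of all genes, and the median log2 fold change of the members was -0.15.

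Markers of blood vessels were lower in ICI on average as well, and those of blood were low in ICI replicates 1 and 3. The 12 endothelial markers summed to 322 to 399.5 CPM in control and 255 to 326 CPM in ICI, and the 8 pericyte and smooth muscle markers to 193 to 265 and 154 to 201 CPM. The 6 red blood cell markers, of which 5 were tested, summed to 11.2 to 46.7 CPM in control and 1.54 to 18.3 CPM in ICI. As mean log2 CPM, the tested ones were at -1.61 and -1.24 in ICI replicates 1 and 3. In the other ICI libraries they were at 0.92 to 1.48, within the control range of 0.72 to 2.73. The 10 meningeal markers summed to 112.6 to 343 and 67.0 to 278 CPM and the 7 border macrophage markers to 16.5 to 38.4 and 18.6 to 29.8 CPM. The 13 microglial markers summed to 343 to 440.1 CPM in control and 327 to 369.8 CPM in ICI. Of these lists, 0 had a marker at 0 in all libraries. Their part in the values of Bst2, Irgm1, Ifitm2 and Rsad2 was not tested.

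**Figure D3:**
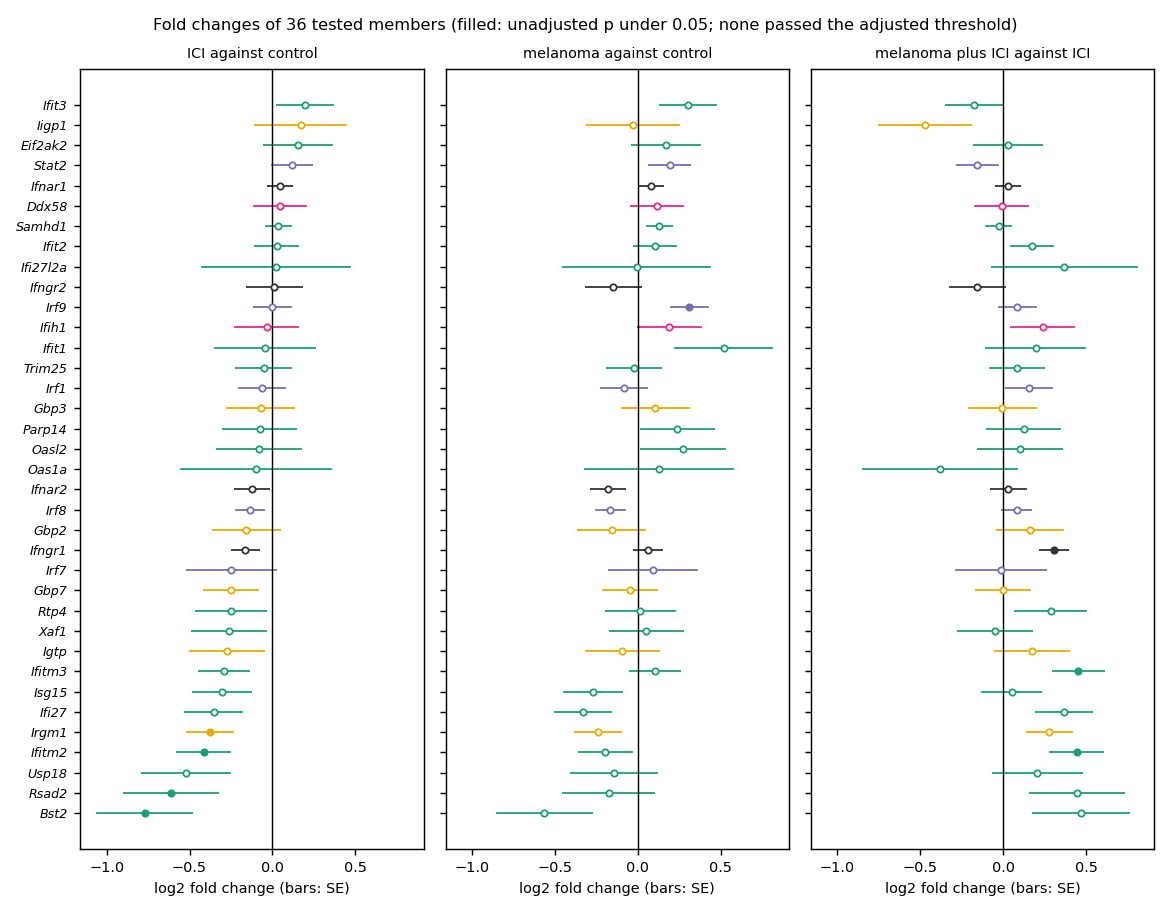
Log2 fold changes (points) with SE (bars) of the 36 tested members in 3 comparisons, in the order of ICI against control and coloured by role. Filled points have an unadjusted p under 0.05, which 4, 1 and 3 members have from left to right, and 0 members passed the adjusted threshold.

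In melanoma against control, which asks what a tumour in the skin did under isotype antibody, 19 members had a higher level and 17 a lower one. The share that was higher was 52.8% of members, beside 47.98% of all genes. By edgeR, 0 of 36 members and 0.0% of all genes were past the adjusted threshold, and DESeq2 called 0 members and 8 genes. At an unadjusted p under 0.05 there was 1 member, Irf9, which was higher (2.78%), beside 2.7% of all genes higher and 5.11% in either direction, and DESeq2 also had 1, beside 5.43% of all genes. The median log2 fold change was 0.03 over members and -0.01 over all genes.

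Irf9 is the subunit that gives the complex with Stat2 its DNA contact. It was at 14.6, 16.8, 17.7, 12.1 and 18.1 CPM in control and at 15.98, 21.5, 22.2, 17.5 and 21.4 CPM in melanoma. In 3 of 5 melanoma libraries it was above every control library, and the other two lay within the control range. On the log2 scale, the difference was 0.31 ± 0.12 (SE, n = 5 per group; edgeR, adjusted p = 0.877). Irf9 overlaps Rnf31, which lies on the same strand and had 234% as many counts, and how the counting treated shared reads is not given. Its partner Stat2 was at 34.1, 35.0, 38.3, 21.5 and 39.2 CPM in control and 37.1, 41.2, 38.4, 35.9 and 39.5 CPM in melanoma. The low control value is that of control replicate 4, 1 of the libraries that stood apart.

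Bst2 was the member with the next smallest p. Its 5 melanoma libraries lay between 3.32 and 4.12 CPM, within the control range, and the log2 fold change was -0.56 ± 0.29 (SE) with an adjusted p of 0.877 by edgeR. The effector Ifit1 had the largest positive value, a log2 fold change of 0.52 ± 0.30. It was at 1.41, 1.36, 1.69, 2.35 and 1.35 CPM in control and at 1.68, 1.84, 2.43, 1.82 and 3.91 CPM in melanoma, where replicate 5 alone lay far above the controls. In 0 of 36 members did the groups not overlap, beside 0.554% of all genes higher and 0.483% lower without overlap. The count at an unadjusted p under 0.05 depended on single libraries. It was 4 without control replicate 1, beside 5.91% of all genes, and 4 without melanoma replicate 4, beside 5.83%. It was 3 without control replicate 4, beside 4.17% of all genes, and 0 without melanoma replicate 3, beside 4.12%. Without both libraries that stood apart it was 3, beside 5.16%.

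In melanoma plus ICI against control, where both differ, the members were spread evenly about no difference. Of 36, 20 were higher (55.6%, beside 50.67% of all genes) and 16 lower, with a median log2 fold change of 0.01 beside 0.00 over all genes. By edgeR, 0 members and 0.0% of all genes were past the adjusted threshold, and 0 members had an unadjusted p under 0.05, beside 2.38% of all genes. DESeq2 gave 0 members on both counts and called 0 genes. In 0 members did the groups not overlap, beside 0.157% and 0.147% of all genes higher and lower. Without control replicate 4 there were 2 members at an unadjusted p under 0.05, beside 5.85% of all genes. Without melanoma plus ICI replicate 2 there was 1, beside 2.29%, and without its replicate 3 also 1, beside 2.59%. Without both libraries that stood apart there was 1, beside 3.84%.

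The smallest p belonged to Ifngr1, the chain that binds interferon gamma. It was at 12.6, 11.6, 11.3, 14.9 and 12.4 CPM in control and at 13.9, 11.7, 15.3, 14.53 and 13.8 CPM in melanoma plus ICI. The log2 fold change was 0.14 ± 0.09 (SE; edgeR, adjusted p = 1.00). Gbp7, a guanylate-binding protein, was at 4.04, 5.19, 3.96, 4.98 and 6.20 CPM in control and at 3.98, 3.83, 5.07, 4.15 and 3.43 CPM in melanoma plus ICI. On the log2 scale, the difference was -0.25 ± 0.17 with the same adjusted p. In both genes the groups overlapped.

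In melanoma plus ICI against melanoma, which asks what the antibodies did in tumour-bearing mice, 19 members were higher and 17 lower. The share that was higher was 52.8% of members, beside 53.5% of all genes. By edgeR, 0 members and 0.0% of all genes passed the adjusted threshold, and 0 members had an unadjusted p under 0.05, beside 5.5% of all genes. DESeq2 called 0 members and 0 genes, with 0 members at an unadjusted p under 0.05. The median log2 fold change was 0.00 over members and 0.02 over all genes, and 0 members had groups without overlap, beside 0.635% of all genes higher and 0.901% lower.

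Ifi27 had the smallest p. It was at 25.4, 30.5, 30.9, 48.0 and 28.9 CPM in melanoma and at 35.4, 35.5, 34.8, 59.2 and 42.9 CPM in melanoma plus ICI. Melanoma replicate 4 was higher than 4 of the 5 libraries of melanoma plus ICI, while the other 4 melanoma libraries lay below all of them. The log2 fold change was 0.34 ± 0.18 (SE; edgeR, adjusted p = 0.825). Irf9 came next, at 14.6, 16.1, 18.97, 17.6 and 16.9 CPM in melanoma plus ICI, with a log2 fold change of -0.23 ± 0.12 and the same adjusted p. Single libraries moved the count at an unadjusted p under 0.05 here too. It was 6 without melanoma plus ICI replicate 3, beside 9.15% of all genes, and 2 without melanoma replicate 4, beside 5.83%. It was 1 without melanoma replicate 1 or without melanoma plus ICI replicate 1 or 2, beside 3.91%, 4.91% and 5.14% of all genes.

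In melanoma plus ICI against ICI, which asks what the tumour did under the antibodies, 25 members were higher and 11 lower. The share that was higher was 69.4% of members, beside 54.99% of all genes. By edgeR, 0 members and 0.0% of all genes passed the adjusted threshold. At an unadjusted p under 0.05 there were 3 members, all higher with the tumour (8.33%), beside 4.12% of all genes higher and 8.63% in either direction, so the share in either direction was close to that of all genes. DESeq2 called 0 members and 9 genes, with 4 members (11.1%) at an unadjusted p under 0.05, beside 9.58% of all genes. The median log2 fold change was 0.09 over members and 0.02 over all genes.

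Ifngr1 was at 11.4, 10.7, 10.2, 12.0 and 11.6 CPM in ICI, below 4 of the 5 libraries of melanoma plus ICI, whose replicate 2 lay within the ICI range. On the log2 scale, the difference was 0.31 ± 0.09 (SE, n = 5 per group; edgeR, adjusted p = 0.563). Under DESeq2 its adjusted p was 0.246, the smallest of any member in any of the 105 alternative fits. Over the 16 alternatives of this comparison, its adjusted p ran from that value to 0.801. Ifitm3 was at 4.46, 4.68, 4.29, 7.29 and 7.20 CPM in ICI and at 6.24, 6.97, 7.59, 8.92 and 8.54 CPM in melanoma plus ICI. The ICI libraries fell into 3 low and 2 high values, and the high ones overlapped the other group. The log2 fold change was 0.45 ± 0.16, with an adjusted p of 0.563 by edgeR. Ifitm2 had a log2 fold change of 0.44 ± 0.17 with the same adjusted p. In 0 of 36 members did the groups not overlap, beside 0.586% of all genes higher and 0.863% lower.

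The same ICI library mattered as in the comparison with control, which shares the ICI mice. Without ICI replicate 5, 8 of 37 members had an unadjusted p under 0.05, all higher with the tumour (21.6%), beside 12.2% of all genes, with a median log2 fold change of 0.22. The smallest adjusted p was then 0.286 by edgeR. Without melanoma plus ICI replicate 2 the count was 5, beside 10.4% of all genes. Without ICI replicate 2 the median log2 fold change was 0.04 and the count was 2, beside 6.8% of all genes. Without both libraries that stood apart it was 4, beside 10.1%, with a median log2 fold change of 0.14. The endothelial markers summed to 291 to 421 CPM in melanoma plus ICI, the pericyte and smooth muscle markers to 202 to 267 CPM, the red blood cell markers to 9.16 to 40.0 CPM and the meningeal markers to 155 to 508 CPM, against the lower ICI ranges given above. The microglial markers summed to 340.3 to 387 CPM. Hippocampal excitatory neuron markers had a mean log2 CPM of 6.11 ± 0.59 with the tumour and 6.87 ± 0.47 without it (SD, n = 5). On the same scale, border macrophage markers were at 0.92 ± 0.23 with the tumour and 0.25 ± 0.52 without it. T cell markers, of which only 3 of 9 were tested, were at 0.21 ± 0.66 and -0.80 ± 0.36. Their highest value of all libraries was 1.09 in melanoma plus ICI replicate 1, 1 of the libraries that stood apart. The part of the listed markers in the values of Ifngr1, Ifitm2 and Ifitm3 was not tested.

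**Figure D4:**
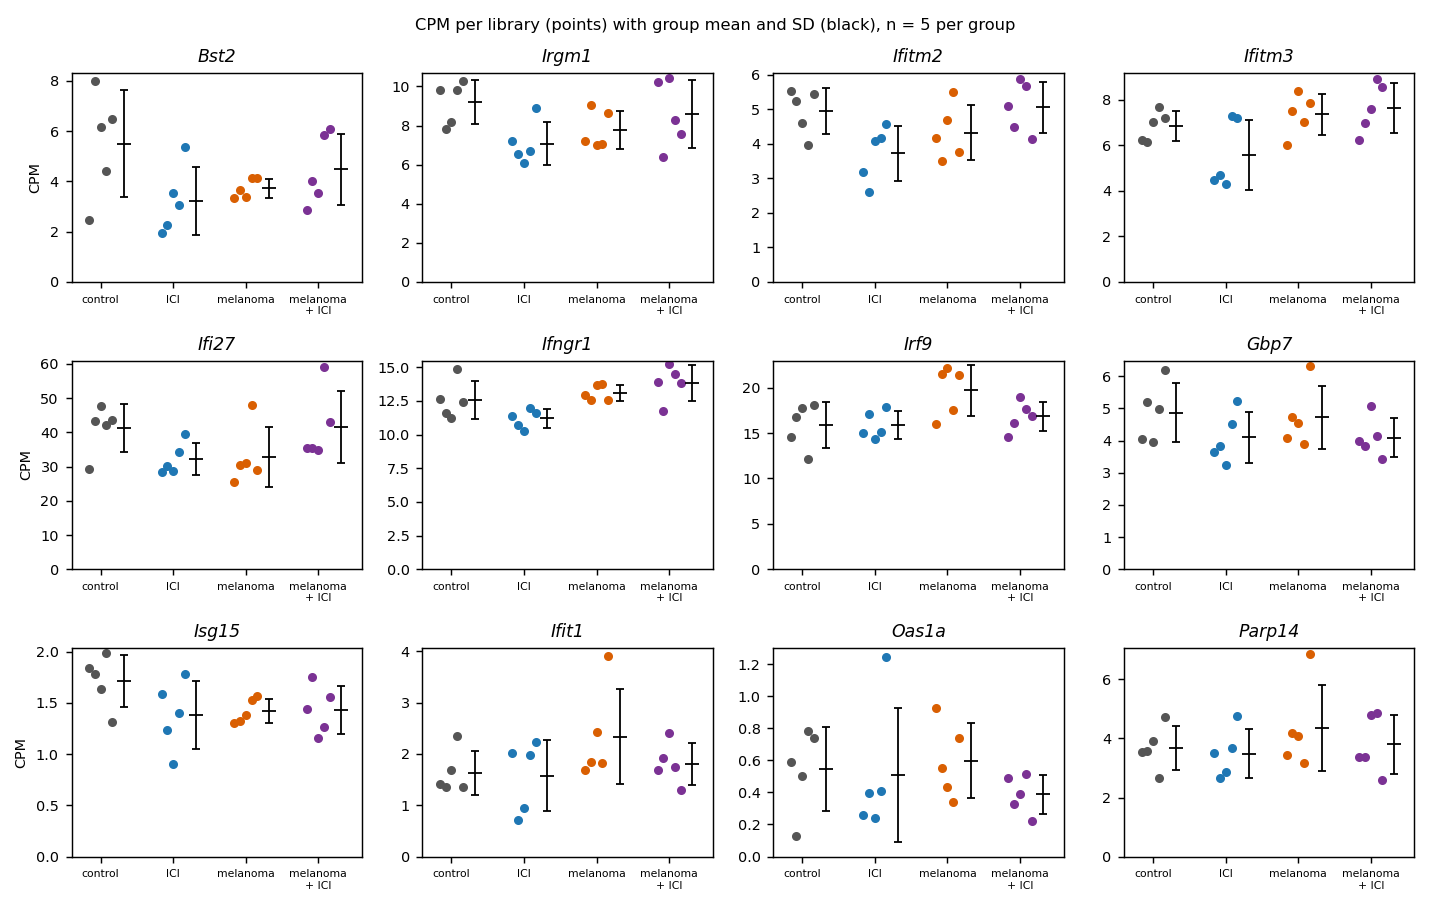
Levels of 12 members in CPM in each library (points, in replicate order within a group), with the group mean and SD beside them in black (n = 5 per group). In the 5 pairs of groups compared, the points of each panel overlap, and in ICI replicate 5 is the highest point in the panels of Bst2, Irgm1, Ifitm2, Ifi27, Irf9, Gbp7, Isg15, Ifit1, Oas1a and Parp14.

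The interaction compares the ICI effect in tumour-bearing mice with that in tumour-free mice. By edgeR, 0 of 36 members and 0.0% of all genes passed the adjusted threshold. At an unadjusted p under 0.05 there were 4 members, all positive (11.1%), beside 5.99% of all genes positive and 10.3% in either direction. DESeq2 called 0 members and 47 genes, with 4 members (11.1%) at an unadjusted p under 0.05, the same share as the 11.1% of all genes. The median value was 0.06 on the log2 scale over members and 0.02 over all genes.

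Ifi27 led with an interaction of 0.70 ± 0.25 on the log2 scale (SE; edgeR, adjusted p = 0.476). Its level was 29.2, 43.4, 47.7, 42.3 and 43.5 CPM in control and 28.4, 30.2, 28.7, 34.4 and 39.4 CPM in ICI. So it was lower in ICI in tumour-free mice, by a log2 fold change of -0.35 ± 0.18, and higher in tumour-bearing mice, neither past the threshold. Ifitm2 had an interaction of 0.64 ± 0.23 (adjusted p = 0.482). It was at 5.53, 5.23, 4.60, 3.97 and 5.46 CPM in control and 3.17, 2.60, 4.10, 4.16 and 4.58 CPM in ICI. In the tumour-bearing mice it was at 4.16, 3.499, 4.68, 5.51 and 3.78 CPM in melanoma and 5.09, 4.48, 5.88, 5.69 and 4.14 CPM in melanoma plus ICI. Each pair of groups overlapped. Bst2 had an interaction of 1.03 ± 0.41 and Irgm1 of 0.52 ± 0.20, with an adjusted p of 0.485 for both by edgeR. Leaving out single libraries gave 4 to 6 members at an unadjusted p under 0.05, which is 10.8% to 16.7% of members beside 7.11% to 15.6% of all genes. Without both libraries that stood apart there were 4, beside 7.99% of all genes, and the median over members was 0.12.

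Markers of several other tissues and cells had the same order of group means as these 4 members, lower in ICI than in control and higher in melanoma plus ICI than in melanoma. They were those of endothelium, pericytes and smooth muscle, meninges, choroid plexus, border macrophages, microglia, T cells and ependyma. The lists for red blood cells, astrocytes, oligodendrocytes, neurons, hippocampal excitatory neurons, plasmacytoid dendritic cells and melanocytes had another order. The mean log2 CPM of the endothelial markers was 4.47 ± 0.13 in control and 4.16 ± 0.14 in ICI, then 4.32 ± 0.14 in melanoma and 4.45 ± 0.18 in melanoma plus ICI (SD, n = 5). For the pericyte and smooth muscle markers these means were 3.85 ± 0.29, 3.53 ± 0.19, 3.69 ± 0.30 and 3.86 ± 0.24. The meningeal markers were at 3.61 ± 0.58, 3.01 ± 0.79, 3.31 ± 0.67 and 4.02 ± 0.59. Those of the choroid plexus were at 4.18 ± 2.69, 3.53 ± 1.93, 3.21 ± 1.79 and 4.80 ± 2.01, and those of border macrophages at 0.56 ± 0.49, 0.25 ± 0.52, 0.82 ± 0.31 and 0.92 ± 0.23. Microglial markers were at 4.41 ± 0.16, 4.27 ± 0.10, 4.28 ± 0.04 and 4.33 ± 0.07. T cell markers, of which 3 of 9 were tested, were at -0.06 ± 0.78, -0.80 ± 0.36, 0.06 ± 0.40 and 0.21 ± 0.66. Ependymal markers were at 2.02 ± 0.93, 2.01 ± 0.85, 2.27 ± 0.60 and 2.40 ± 0.68, so control and ICI hardly differed. Of the lists with another order, red blood cell markers were at 1.56 ± 0.74, 0.16 ± 1.47, 1.55 ± 0.83 and 1.41 ± 0.74. The part of the marker lists in the interaction values was not tested.

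A few libraries held the extreme values of many members. Melanoma replicate 5 had the highest level of all 20 libraries for 9 of 36 members, beside 2.77% of all genes tested. These were the effectors Ifit1, Samhd1, Oasl2, Parp14 and Usp18 and the GTPases Gbp2, Gbp3, Gbp7 and Iigp1. Within its group it was highest for 20 members (55.6%), beside 17.9% of all genes. Parp14, an ADP-ribosyltransferase, was at 6.86 CPM there and at 2.58 to 4.86 CPM in the other 19 libraries. Gbp3 was at 8.03 CPM there and at 3.39 to 6.44 CPM elsewhere. Usp18 was at 1.74 CPM, close to the 1.73 CPM of control replicate 3.

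ICI replicate 5 was highest in its group for 24 of 36 members (66.7%), beside 21.9% of all genes, and highest of all libraries for Ifit3, Oas1a, Irf7 and Ddx58. Oas1a was at 1.24 CPM there and at 0.238 to 0.412 CPM in the other ICI libraries. ICI replicate 3 stood at the other end. It was lowest of all 20 libraries for 9 of 36 members, beside 6.49% of all genes, among them Isg15, Rsad2, Usp18 and Oasl2, and highest in its group for 5 others (13.9%, beside 28.8% of all genes), Irf1, Irf8, Stat2, Ifnar2 and Ifngr2. Of these, Rsad2 was at 0.381 CPM there and at 0.729 to 1.74 CPM elsewhere. Also in ICI, replicate 2 was lowest of all libraries for 6 members (16.7%), beside 3.69% of all genes. Control replicate 2 was highest of all libraries for 5 members (13.9%), beside 5.29% of all genes. Melanoma plus ICI replicate 3 was highest of all libraries for 6 members (16.7%), beside 9.33% of all genes, and highest in its group for 16 (44.4%), beside 24.5%. Control replicate 5 was highest in its group for 14 members (38.9%), beside 14.7% of all genes. Melanoma replicate 1 was lowest in its group for 20 members (55.6%), beside 17.4% of all genes.

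The mean log2 CPM over the 19 tested effectors summarises this. Control mice had 1.95 ± 0.14 and ICI mice 1.74 ± 0.34 (SD, n = 5), and the tumour-bearing groups had 1.98 ± 0.16 with isotype antibody and 1.93 ± 0.17 with ICI. The highest and the lowest of all 20 libraries were both in ICI, replicate 5 at 2.25 and replicate 3 at 1.41. For the 6 GTPases it was 2.03 ± 0.11, 1.87 ± 0.21, 1.94 ± 0.30 and 1.88 ± 0.15 in the same order of groups, with melanoma replicate 5 highest at 2.44. The mean log2 CPM of the receptor chains lay between 4.61 and 4.89 over all libraries, with ICI replicate 5 at 4.66 and melanoma replicate 5 at 4.68. The chains differed among themselves: Ifnar1 was highest in its group in both of these libraries, at 51.4 and 52.9 CPM, while Ifngr2 was at 42.49 and 40.9 CPM, the lowest value in ICI and the second lowest in melanoma.

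Markers of other cells differed between these libraries too. As mean log2 CPM, the border macrophage markers were highest of all libraries in melanoma replicate 5 (1.23) and lowest in ICI replicate 3 (-0.37), with ICI replicate 5 at 0.79. The pericyte and smooth muscle markers were likewise highest in melanoma replicate 5 (4.18) and lowest in ICI replicate 3 (3.31), with ICI replicate 5 at 3.65. Control replicate 1 was almost as high as melanoma replicate 5 in both lists (1.23 and 4.17), as was melanoma plus ICI replicate 2 (1.21 and 4.13). These libraries ranked 14 and 9 of 20 for the mean of the effectors and were highest of all libraries for 0 members. The meningeal markers were lowest of all libraries in ICI replicate 3 (2.03) and highest in their groups in ICI replicate 5 (3.91) and melanoma replicate 5 (4.20). The endothelial markers, at 4.07 in ICI replicate 3, were also highest in their groups in ICI replicate 5 (4.39) and melanoma replicate 5 (4.51). T cell markers were lowest of all libraries in ICI replicate 3 (-1.31) and highest of ICI in replicate 5 (-0.30). Hippocampal excitatory neuron markers were highest of all libraries in ICI replicate 3 (7.44) and at 6.19 in ICI replicate 5. The microglial markers went the other way from the effectors in ICI replicate 3 (4.40), ICI replicate 5 (4.20) and melanoma replicate 5 (4.26). In ICI replicate 2 both were low, at rank 20 of 20 for the microglial markers (4.15) and rank 19 for the effectors (1.57). For plasmacytoid dendritic cells, a main source of type I interferon in infection, 3 of 6 markers were tested, and Ly6d, Klk1 and Cd300c were left out by the filter. All 6 summed to 339 to 636 CPM, a sum that includes Tcf4, which other brain cells express too. Of 9 T cell markers, 3 were tested, with summed levels of all 9 between 1.38 and 11.8 CPM. Of 8 markers of monocytes and neutrophils, 0 were tested, and all 8 summed to at most 1.89 CPM in any library. The part of these cells in the pattern was not tested.

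**Figure D5:**
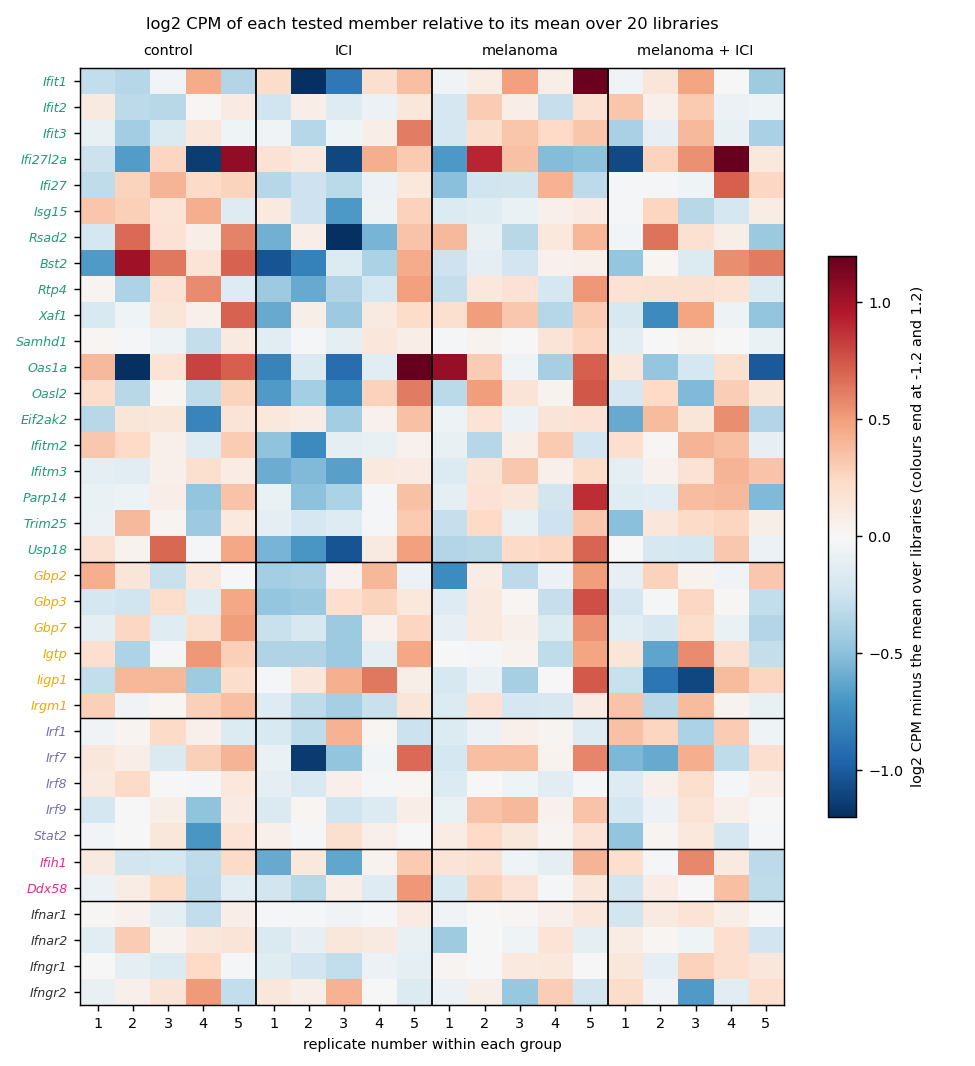
Log2 CPM of the 36 tested members in each library minus the member's mean over the 20 libraries, with roles coloured and separated by lines and colours ending at -1.2 and 1.2. Melanoma replicate 5 and ICI replicate 5 are red over most effectors, ICI replicates 1 to 3 are mostly blue, and the receptor chains Ifnar1 and Ifngr1 near the bottom stay pale.

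The wider pathway was followed with 142 further genes, of which 115 were tested. By edgeR, 0 of them passed the adjusted threshold in any of the 6 comparisons. In ICI against control, 9 (7.83%) had an unadjusted p under 0.05, 1 higher and 8 lower, beside 5.23% of all genes. The smallest p was that of Trim34a, a TRIM family protein, with a log2 fold change of -0.58 ± 0.19 (SE; edgeR, adjusted p = 0.767). In melanoma against control there were 6 (5.22%), 2 higher and 4 lower, beside 5.11% of all genes. Tlr3, the endosomal sensor of double-stranded RNA, had the smallest p there, with a log2 fold change of -0.35 ± 0.12 (adjusted p = 0.813). In melanoma plus ICI against control there was 1 (0.87%), beside 2.38% of all genes. It was the mitochondrial regulator Nlrx1, with a log2 fold change of -0.35 ± 0.14 (adjusted p = 1.00).

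With the tumour in both groups, 3 of the 115 (2.61%) had an unadjusted p under 0.05 in melanoma plus ICI against melanoma, beside 5.5% of all genes. Shisa5 had the smallest p, with a log2 fold change of 0.27 ± 0.11 (adjusted p = 0.825 by edgeR). In melanoma plus ICI against ICI there were 12 (10.4%), 10 higher and 2 lower, beside 8.63% of all genes. Irf2bp2, a corepressor that binds Irf2, led them with a log2 fold change of 0.47 ± 0.12 (adjusted p = 0.563). In the interaction there were 18 (15.7%), 16 positive and 2 negative, beside 10.3% of all genes, led by Shisa5 with 0.47 ± 0.16 on the log2 scale (adjusted p = 0.476). The 23 tested genes of the interferon gamma response, mostly of antigen presentation, held 7 of the 18, which is 30.4% of the list, and had a median interaction of 0.37 on the log2 scale, beside 0.02 over all genes. Several of the marker lists given above had the same order of group means as the 4 leading members and others did not. Their part in these values was not tested. The lists of kinases, STATs and IRFs, of negative regulators, of nucleic acid sensing and of other interferon-stimulated genes held 3, 1, 2 and 5.

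Some members share sequence or position with other genes, and their values are less certain for it. Irf7 overlaps Phrf1 on the opposite strand, which had 3500% as many counts, and since strand use is not given, reads of the 2 cannot be told apart. Igtp overlaps Irgm2 on the same strand, with 117% as many counts, and Rtp4 overlaps Gm45338, with 26.3%. Near copies among the guanylate-binding proteins, in Ifit3 and Ifit3b and in Oas1a and its relatives could also have had reads split or dropped by the counting. Ifnar1, Ifngr1, Stat2, Bst2 and Irgm1 had no overlapping gene in the annotation used.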

How the data were processed

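The deposited files give raw counts per gene, 1 table per library, with gene coordinates, strand and length per the file headers. The submitters' processing notes name STAR 2.5.2b and DESeq2 1.16.1, with no role. The counting program, genome build, annotation, strand setting and handling of multi-mapping reads are not given in the sources used here. The coordinates were compared with GENCODE M21 (GRCm38): 49412 of 49671 identifiers occur in it, 45214 with the same start and end, among them 33 of the 37 members. It also gave the symbols, and 1 of the pathway symbols (Mb21d1) matched no gene. Groups came from the sample titles.

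Tests used edgeR 4.0.16 in R 4.3.3 on the counts as deposited: filterByExpr (minimum count 10, minimum total 15), TMM scaling (factors 0.9555 to 1.0432), and a robust quasi-likelihood fit of all 20 libraries with 1 mean per group (16 residual and a median of 3.57 prior degrees of freedom). P-values were adjusted by Benjamini-Hochberg over the 18427 genes tested. The SE is the log2 fold change divided by the square root of the F statistic. CPM divides counts by the TMM-scaled library size and multiplies by 1000000, and log2 CPM has a prior count of 2. The test was checked on simulated data, where it missed many of the smaller changes, so a member short of the threshold may still differ. Within groups, the 40 pairs of libraries differed by a chi-square of 11.5 to 134 per gene, where sampling noise alone gives about 1, so no pair was treated as 1 library deposited in 2 tables.

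In each comparison the text names the 2 members and the 1 pathway gene with the smallest p and any past the threshold. Other members named for their level, their role or a library that stands out were chosen after their values were seen. The members and lists were chosen with earlier results of these data known. Promoter windows came from RefSeq, and 32 of 35 windows of members ended inside a GENCODE M21 transcript of the gene. Alternatives were DESeq2 1.42.0, its size factors in edgeR, only the groups compared, no filter, a replicate block, and leaving out each library or the 2 that stood apart.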

Additional observations from a re-analysis of the deposited data

Results flagged for a closer look

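Each of the 37 members was looked at in each group of 5 for 1 library far from the other 4, and 11 of the 148 groups held one, where chance gives about 1 in 20. In ICI, replicate 5 was far above the rest for 4 members: Rtp4, a chaperone of receptor proteins, at 3.02 CPM (others 1.41 to 1.85), Oas1a at 1.24 CPM (0.238 to 0.412), Igtp at 4.71 CPM (2.52 to 3.13) and Ifnar1 at 51.4 CPM (46.6 to 47.5). In melanoma, replicate 5 was far above for Parp14, at 6.86 CPM (3.18 to 4.18), and for Iigp1, at 2.47 CPM (1.13 to 1.49). Also in melanoma, Ifi27 was high in replicate 4, at 48.0 CPM (25.4 to 30.9), and Ifit3 was low in replicate 1, at 5.59 CPM (7.42 to 8.07). In control, replicate 4 was low for Stat2, at 21.5 CPM (34.1 to 39.2), and for Mx1, at 0.138 CPM (0.425 to 0.470), the latter on 3 counts. In melanoma plus ICI, Rtp4 was low in replicate 5, at 1.91 CPM (2.41 to 2.44).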

How the results depend on the processing

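In 105 alternative fits of the 6 comparisons, 0 had a member past the adjusted threshold, and the smallest adjusted p of any member was 0.246 (edgeR and DESeq2). Of the fold changes followed for the 2 leading members of a comparison, 0 changed sign, but these members were picked by p in the same data. The median log2 fold change of the members moved in each fit by less than the spread between mice, an SD of 0.16 in their mean log2 CPM. That spread was larger than each median of the main fit, so staying within it does not show a steady median. Over the 70 fits without 1 library, that median ran from -0.18 to -0.07 in ICI against control, from -0.07 to 0.07 in melanoma against control, from -0.06 to 0.02 in melanoma plus ICI against control, from -0.05 to 0.03 in melanoma plus ICI against melanoma, from 0.04 to 0.22 in melanoma plus ICI against ICI and from 0.00 to 0.18 in the interaction. The counts at an unadjusted p under 0.05 ran from 2 to 11, 0 to 4, 0 to 2, 0 to 6, 2 to 8 and 4 to 6 in the same order.

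The replicate numbers are only numbers: of 30 same-numbered pairs, 10 had a correlation over 0.1, with a range of -0.35 to 0.53, and 6 of 20 libraries correlated best with their own number. With the replicate block, 0 members passed the adjusted threshold in each comparison, and the count at an unadjusted p under 0.05 was 7 in ICI against control, 3 in melanoma against control and 2 in melanoma plus ICI against melanoma, in place of 4, 1 and 0, beside 4.98%, 4.89% and 5.27% of all genes. It was 4 in melanoma plus ICI against ICI and 5 in the interaction, in place of 3 and 4, beside 7.98% and 9.38%. With only the 2 groups compared, the count was 1 in melanoma plus ICI against melanoma, beside 7.3% of all genes. Without control replicate 4 and melanoma plus ICI replicate 1, it was 3 in melanoma against control and 1 in melanoma plus ICI against control, beside 5.16% and 3.84%. The cause was not tested.

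Depth limits the lowest members: Mx1 had 12 counts at most, and the interferon ligands could not be tested.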
